A study of Oryza sativa with 8 samples.

Results

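Calmodulins, calmodulin-like (CML) proteins and calcium-dependent protein kinases (CPK) of rice were followed through a day of chilling in wild-type seedlings and in seedlings overexpressing OsTMF. Members were the genes whose array symbol or synonym, with a leading Os removed, was CAM, CML, CPK or CDPK followed by a number. The rule found 46 genes on 54 probe sets, out of 17905 genes with a probe set of their own. These were 3 calmodulin genes, 23 CML genes and 20 CPK genes. The array annotation itself named 5 of them and the synonyms of a reference gene table named the others.

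Signals came from 8 one-colour Affymetrix rice arrays hybridised with total RNA of shoots and leaves at the 4-leaf stage. All plants were of the cultivar Zhonghua 11 (ZH11). ZH11 normal and ZH11 cold were wild type, and OE normal and OE cold carried the OsTMF overexpression construct, whose promoter is not given in the sources used here. Normal plants were sampled before treatment and cold plants after 24 h in a chamber at a constant 4 °C, so the effect of cold cannot be told apart from that of 1 more day and of the new surroundings. Each group had 2 arrays. The 2 arrays of each OE group were lines OE-24 (replicate 1) and OE-29 (replicate 2), so the spread within OE includes any difference between lines. The series' design text calls the ZH11 replicates independent biological ones.

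Cold lets calcium into plant cells within moments, and the rise is read by proteins with EF-hands, loops that bind calcium. Calmodulins and CML proteins have no enzymatic part and act by binding other proteins once they hold calcium. CPK proteins join a calmodulin-like domain to a protein kinase in 1 chain, so that calcium switches the kinase on directly. This is background on the proteins, whereas the arrays measured transcripts a day after the cold began.

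Array medians ran from 27.2 to 28.2. OsTMF itself was not matched to a probe set (0 genes found by name), so its level is not given. Of the leaf markers, 4 of 9 were found and all 4 passed the filter on low signals, while for root, seed storage and meristem markers 1 gene each passed out of 3, 3 and 4 found. The summed leaf signal was 40129 to 41519 in ZH11 normal, 22688 to 23650 in ZH11 cold, 40295 to 40722 in OE normal and 22127 to 22673 in OE cold, and the drop lay in the chlorophyll-binding protein genes CAB2R and LHCP, while RBCS and RCA had changes of -0.06 and 0.59 in ZH11 and -0.01 and 0.38 in OE on the log2 scale. The cold regulators DREB1A and DREB1B summed to 132 to 219 on the normal arrays, 1115 to 1274 in ZH11 cold and 5396 to 5439 in OE cold.

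Signals were taken to log2 after adding 16 and tested with limma over all probe sets with a mean signal above 17.65, the 40th percentile. Of the 46 genes, 43 passed this filter. CPK2 did not, at 5.7 to 9.5 over the 8 arrays, nor did CML32, at 6.3 to 9.9, and CPK29, at 8.1 to 10.4. Another 4 genes, CML17, CML24, CPK6 and CPK21, had a mean before cold at or below the threshold and passed because of their cold arrays, as did 195 of 15858 genes in all. Each gene is represented by its brightest tested probe set, and a call means an adjusted p under 0.05 over all tested probe sets.

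Chilling of ZH11 raised 21 of the 46 genes and lowered 10, while 12 did not pass and 3 were not tested. The 21 include CML24, CPK6 and CPK21, which passed the filter through their cold arrays. Among all 15858 genes tested, 71% were called in ZH11, 25.8% higher and 45.2% lower. The called share of the members tested, 72.1%, was near that background. The split by direction was 48.8% higher and 23.3% lower, and after median centring of the arrays 20 were higher and 11 lower. Rises of 2-fold or more were called for 11 genes, 7 CML and 4 CPK (8.64% of all genes), and falls of that size for CML29 and CPK17 (14.5% of all genes). These rises include CML24 and CPK6, which passed the filter through their cold arrays and whose fold depends on the added 16. Without genes that passed in that way, the rises were 9 of 39 members and 8.33% of all genes. The median log2 change of the 43 genes was 0.20 and that of all genes -0.18. These counts describe the list, and no test of the list was made. In shoots and leaves taken whole, fewer cells of a type and less RNA per cell cannot be told apart.

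In OE, cold raised 19 genes and lowered 11, with 13 not passing. CML24, CPK6 and CPK21 are among the 19 as well. The shares over all genes were 67.3% called, 25.6% higher and 41.7% lower, and 69.8% of the members tested were called. Rises of 2-fold or more were called for 14 genes (8.25% of all genes), 8 CML and 6 CPK, and a fall of that size for CML29 alone (12% of all genes). CML24, CPK6 and CPK21 are among the 14 and had passed the filter through their cold arrays. Without such genes the rises were 11 of 39 members and 7.87% of all genes. The median log2 change was 0.18, against -0.14 for all genes.

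**Figure D1:**
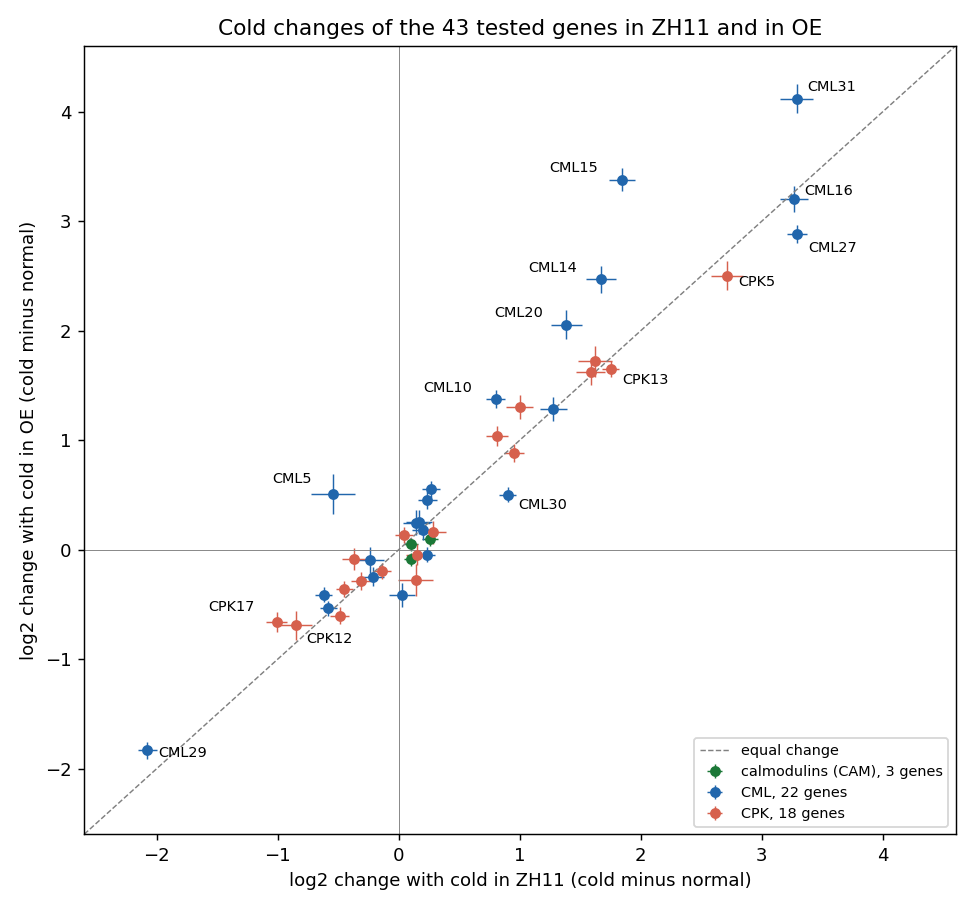
Log2 change with cold in ZH11 (x axis) and in OE (y axis) for the 43 tested genes, coloured by family, with standard errors and a dashed line of equal change. CML15 lies at 1.84 and 3.38, above the line, while CPK genes such as CPK5 (2.71 and 2.50) and CPK13 (1.75 and 1.65) lie close to it.

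Of the 3 calmodulin genes, cold raised CAM2 in ZH11. CAM2 gave signals of 1546 and 1518 in ZH11 normal, 1859 and 1821 in ZH11 cold, 1569 and 1472 in OE normal, and 1583 and 1678 in OE cold. The ZH11 cold arrays were the highest of the 8. Cold raised it in ZH11 by 0.26 ± 0.07 on the log2 scale (± is limma's standard error; adjusted p = 0.00577), and in OE its change was 0.10 ± 0.07 (adjusted p = 0.232). The difference between these changes of CAM2, -0.16 ± 0.09, did not pass (adjusted p = 0.479). CAM3 gave 3779 and 3659, then 4005 and 3979 after cold in ZH11, and 3616 and 3369, then 3594 and 3622 in OE. Its changes of 0.10 ± 0.06 in ZH11 (adjusted p = 0.157) and 0.05 ± 0.06 in OE (adjusted p = 0.523) did not pass, with 95% intervals of -0.03 to 0.23 and -0.08 to 0.18.

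CAM1 stood at 2398 and 2409 in ZH11 normal and 2544 and 2617 in ZH11 cold. In OE it stood at 2378 and 2353 before cold and 2183 and 2263 after it. Cold changes were 0.10 ± 0.06 (adjusted p = 0.155) and -0.09 ± 0.06 (adjusted p = 0.224), so neither passed, and the difference between them, -0.19 ± 0.08, did not pass either (adjusted p = 0.336). The reference table lists CAM1-1, CAM1-2 and CAM1-3 as names of this 1 locus. Rice CAM1 genes encode the same protein, and how far their transcripts share this probe set was not tested.

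**Figure D2:**
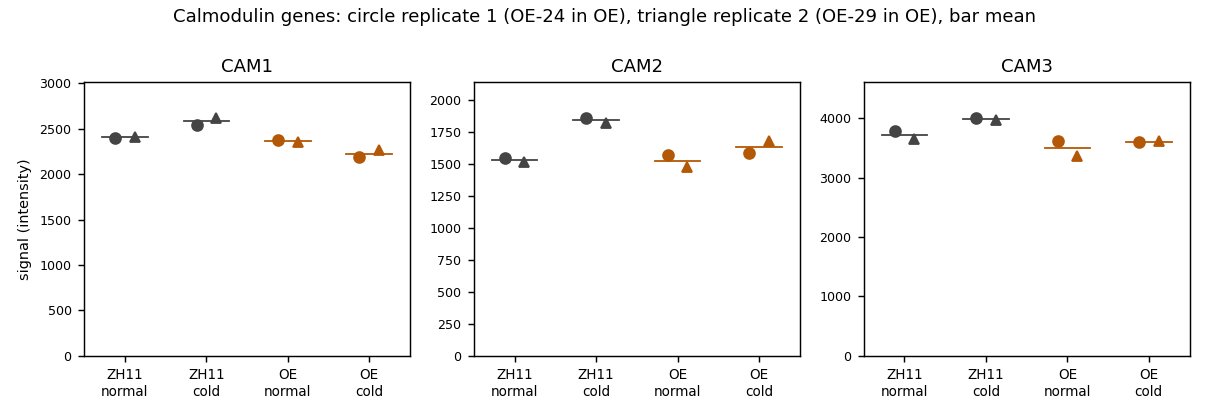
Signal (intensity, linear axis from 0) of the 3 calmodulin genes on each array, with replicate 1 as circles, replicate 2 as triangles and the group mean as a bar. CAM1 lies between 2183 and 2617, CAM2 between 1472 and 1859 and CAM3 between 3369 and 4005 over the 8 arrays.

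CML genes held the largest rises. Cold raised 12 of the 23 in ZH11 and lowered 4, with 6 not passing and 1 not tested, and in OE it raised 12 and lowered 5. Of the CML genes tested, 72.7% were called in ZH11 and 77.3% in OE, against 71% and 67.3% of all genes. In ZH11 54.5% were higher and 18.2% lower, and in OE 54.5% and 22.7%. Over all genes these shares were 25.8% and 45.2% in ZH11 and 25.6% and 41.7% in OE. CML24, counted as higher in both, passed the filter through its cold arrays. CML27 gave 425 and 415 before cold and 4320 and 4187 after it in ZH11, a rise of 3.29 ± 0.08 (adjusted p = 7.92e-10). In OE it went from 445 and 516 to 3815 and 3469, a rise of 2.88 ± 0.08 (adjusted p = 1.83e-09). Cold arrays lay far above normal arrays in both genotypes, about 10.1 and 7.58 times in mean signal. Among all genes tested the rise of CML27 ranked 83 of 15858 in ZH11 and 175 in OE.

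CML31 went from 228 and 324 to 2783 and 2799 in ZH11, a rise of 3.29 ± 0.13 (adjusted p = 1.41e-08). In OE it went from 197 and 231 to 4003 and 3943, a rise of 4.12 ± 0.13 (adjusted p = 3.59e-09). This was the largest rise of any member in either genotype and ranked 46 of 15858 genes in OE. CML16 gave 821 on both ZH11 normal arrays and 7979.5 and 8073 on the cold ones, a rise of 3.26 ± 0.12 (adjusted p = 6.68e-09). OE seedlings gave 789 and 1091, then 8910.3 and 8427, a rise of 3.20 ± 0.12 (adjusted p = 8.17e-09). The rises differed by -0.06 ± 0.17 (adjusted p = 0.908), and OE-29 was the highest of the 4 normal arrays.

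CML15 gave 259 and 314 in ZH11 normal, 1101 and 1030.4 in ZH11 cold, 222 and 249 in OE normal and 2748 and 2442 in OE cold. The rise was 1.84 ± 0.11 in ZH11 (adjusted p = 1.54e-07) and 3.38 ± 0.11 in OE (adjusted p = 2.97e-09). Every cold array exceeded every normal array, and both OE cold arrays exceeded both ZH11 cold arrays. CML15 was called on these same arrays, so this is no separate support, and the share of all genes that do so is not given here. CML14 had its highest signals in OE cold too. They were 70.9 and 77.8, then 250 and 294 in ZH11, and 63.1 and 73.2, then 488 and 412 in OE, giving rises of 1.67 ± 0.13 (adjusted p = 1.08e-06) and 2.47 ± 0.13 (adjusted p = 8.21e-08).

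CML20 rose from 53.3 and 46.1 to 164 and 146 in ZH11 and from 54 and 60 to 258 and 318 in OE, by 1.38 ± 0.13 and 2.05 ± 0.13 (adjusted p = 5.44e-06 and 3.53e-07). CML10 rose from 1359 and 1390.1 to 2389 and 2420 in ZH11 and from 1155 and 1321 to 3424 and 3053 in OE, by 0.80 ± 0.08 and 1.38 ± 0.08 (adjusted p = 9.69e-06 and 2.14e-07). For both, the OE cold arrays were the highest of the 8. CML30 showed the other order, with 605 and 624, then 1174 and 1149.8 in ZH11, and 593 and 564, then 815 and 836 in OE. Its rise was 0.90 ± 0.07 in ZH11 (adjusted p = 1.39e-06) and 0.50 ± 0.07 in OE (adjusted p = 0.000128). CML24 rose from low signals, 20.5 and 14.7 to 67.8 and 62.5 in ZH11 and 13.2 and 13.7 to 59.1 and 52.6 in OE. Smaller rises were called in both genotypes for CML4 (0.27 and 0.55) and CML18 (0.24 and 0.45), and for CML7 in ZH11 (0.23, and -0.05 in OE, adjusted p = 0.578). The difference between the changes of CML7, -0.28 ± 0.10, did not pass (adjusted p = 0.219).

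**Figure D3:**
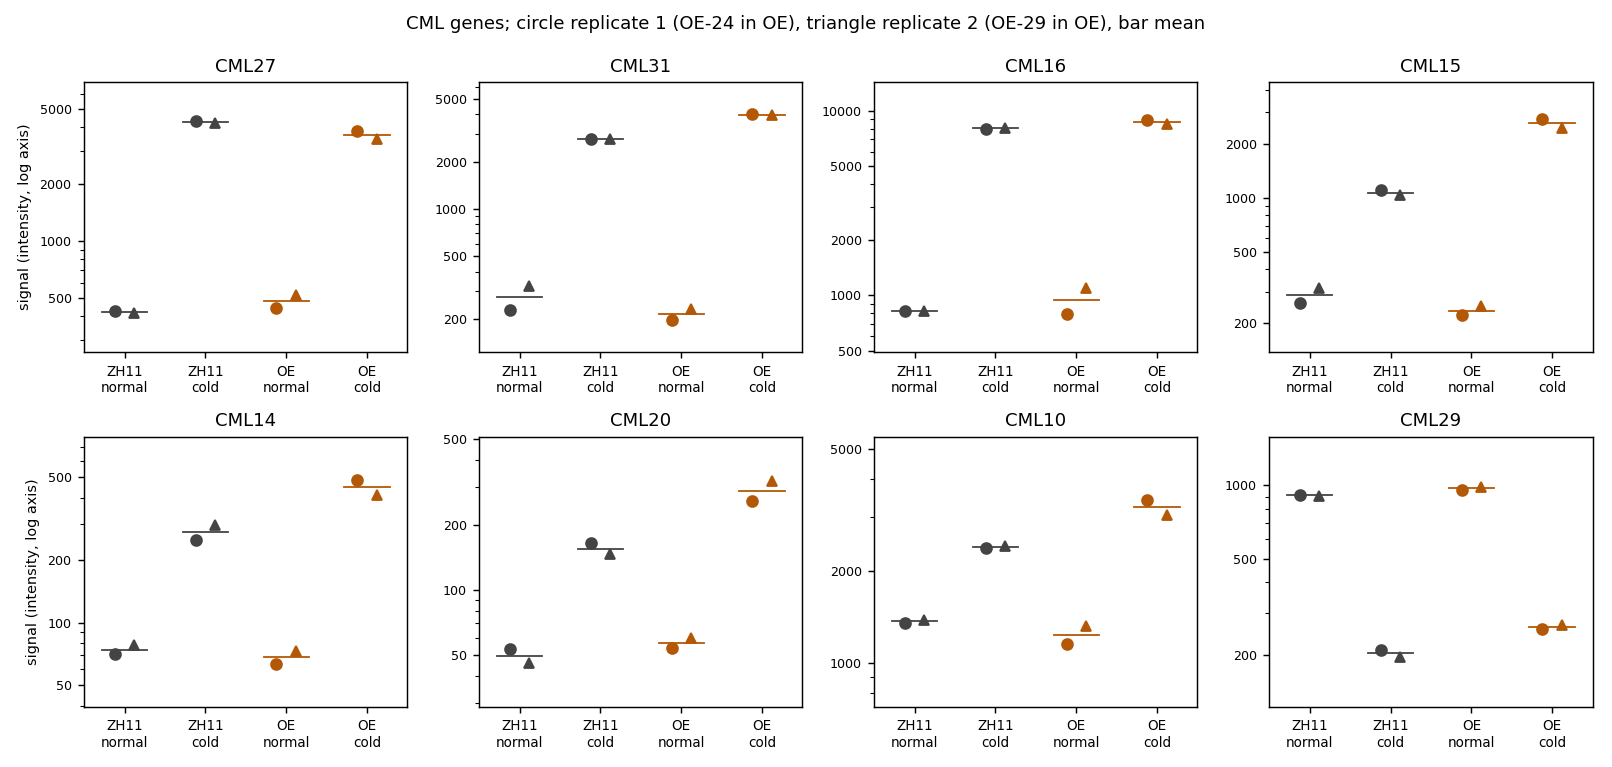
Signal (intensity, log axis) of 8 CML genes on each array, ZH11 in grey and OE in orange, with replicate 1 as circles, replicate 2 as triangles and the group mean as a bar. After cold, CML15 lies at 1030.4 to 1101 in ZH11 and 2442 to 2748 in OE, whereas CML27 lies at 4187 to 4320 and 3469 to 3815, and CML29 falls from above 904 to below 267.

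Fewer CML genes fell, and CML29 fell most. It gave 917 and 904 before cold and 211 and 197 after it in ZH11, and 959 and 987, then 258 and 266 in OE. The changes were -2.08 ± 0.08 (adjusted p = 8.44e-09) and -1.83 ± 0.08 (adjusted p = 2.29e-08), and its mean signal before cold was 4.47 times that after cold in ZH11 and 3.71 times in OE. CML13 changed by -0.62 ± 0.07 in ZH11 (1233 and 1196 before cold, 795 and 772 after) and by -0.41 ± 0.07 in OE (1146 and 1122 before, 873 and 825 after), with adjusted p = 1.83e-05 and 0.000431. CML8 changed by -0.58 ± 0.07 and -0.54 ± 0.07, from 1727 and 1728 to 1179.9 and 1117 in ZH11 and from 1676 and 1857 to 1204 and 1216 in OE. Normal and cold arrays did not overlap for any of these 3 genes, which were called on the same arrays, so this is no separate support. The share of all genes without overlap is not given here.

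CML11 fell in OE and did not pass in ZH11. It gave 120.3 and 121, then 125 and 122 in ZH11 (0.03 ± 0.11, adjusted p = 0.849), and 92.2 and 83.8, then 66.1 and 58.1 in OE (-0.41 ± 0.11, adjusted p = 0.0079). The interaction was -0.44 ± 0.15 and did not pass (adjusted p = 0.234), and without the cold array of OE-29 the call in OE was lost (adjusted p = 0.0672). CML1, which the table also names OsCAM61, a calmodulin-like protein that carries a lipid group, changed by -0.21 in ZH11 (adjusted p = 0.0556) and by -0.25 in OE (adjusted p = 0.0313). CML3, CML9, CML17 and CML28 passed in neither genotype, with changes between -0.23 and 0.25. CML9 lies beside CAM2 on chromosome 5 in the reference table, with 0 protein-coding genes between them, and its signals were 146 and 173, then 183 and 178 in ZH11, and 138 and 125, then 159.5 on both arrays in OE.

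CML5, also named OsCAM-2, was the member called in opposite directions. Its brightest probe set gave 128 and 115, then 78.1 and 78.1 in ZH11 (-0.54 ± 0.18, adjusted p = 0.025), and 132 and 106, then 221 and 139 in OE (0.51 ± 0.18, adjusted p = 0.035). The other tested probe set gave 95.5 and 79.1, then 105 and 96.5 in ZH11 (0.18 ± 0.15, adjusted p = 0.307), and 90.4 and 85, then 183 and 134 in OE (0.74 ± 0.15, adjusted p = 0.00152). The probe sets thus differed in sign in ZH11 and both were higher after cold in OE. The fall in ZH11 was not called after quantile normalization (adjusted p = 0.108) or without any 1 of the 4 ZH11 arrays (adjusted p = 0.0506 to 0.117). It was -0.18 when the probe sets were averaged (adjusted p = 0.351). The rise in OE was not called in the fit of the OE arrays alone (adjusted p = 0.0641) or without either ZH11 cold array (adjusted p = 0.0536 in both). Without the OE-29 normal array it was 0.37 (adjusted p = 0.196), and without the OE-24 cold array 0.20 (adjusted p = 0.329).

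Of the 20 CPK genes, cold raised 8 and lowered 6 in ZH11 and raised 7 and lowered 6 in OE, with 2 not tested. Of the CPK genes tested, 77.8% were called in ZH11 and 72.2% in OE, against 71% and 67.3% of all genes. In ZH11 44.4% were higher and 33.3% lower (25.8% and 45.2% of all genes). In OE 38.9% were higher and 33.3% lower (25.6% and 41.7% of all genes). CPK6 and CPK21, counted as higher in both, passed the filter through their cold arrays. CPK5 rose most. It gave 227 on both ZH11 normal arrays and 1599 and 1554 after cold, and in OE 187 and 272, then 1311 and 1399.6. Its rises were 2.71 ± 0.13 (adjusted p = 5.43e-08) and 2.50 ± 0.13 (adjusted p = 1.12e-07), with cold arrays 6.94 and 5.90 times the normal ones in mean signal.

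CPK13 is the kinase whose transgenic overexpression in rice is known to raise tolerance of cold, salt and drought, first described under the name OsCDPK7. The reference table lists OsCDPK7 as a synonym of both CPK7 and CPK13, so the link of that work to CPK13 rests on background knowledge and not on the table. CPK13 stood at 2089.5 and 1935 before cold and 6685 and 6944 after it in ZH11, and at 1955 and 2193, then 6585 and 6467 in OE. The rises were 1.75 ± 0.07 (adjusted p = 1.31e-08) and 1.65 ± 0.07 (adjusted p = 2.34e-08). A second, dimmer probe set of CPK13 gave 2.55 ± 0.13 and 2.43 ± 0.13, the same direction in both genotypes. CPK4, known to raise salt and drought tolerance when overexpressed in rice, went from 1068 and 930.2 to 3100.1 and 2948 in ZH11, a rise of 1.59 ± 0.12 (adjusted p = 1.05e-06). In OE it went from 984 and 1306 to 3683 and 3389.9, a rise of 1.63 ± 0.12 (adjusted p = 1.01e-06).

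CPK7 rose from 600.3 and 556 to 1132 and 1134 in ZH11 and from 493 and 562 to 969 and 1000 in OE, by 0.95 ± 0.08 and 0.88 ± 0.08. CPK20 rose from 759 and 743 to 1338 and 1328 in ZH11 and from 652 and 704 to 1540 and 1282 in OE, by 0.81 ± 0.09 and 1.04 ± 0.09. For each of these 5 kinases every cold array exceeded every normal array, which is no separate support, since they were called on the same arrays. The share of all genes that do so is not given here. CPK6 and CPK21 rose from signals near the floor of the arrays. CPK6 was at 7.1 to 9.1 on the normal arrays and 45.7 to 71.3 on the cold ones, and CPK21 at 8.8 to 11.8 and 35.4 to 54.8. Their fitted rises, 1.62 in ZH11 and 1.72 in OE for CPK6 and 1.30 in OE for CPK21, depend on the 16 added before log2, and both genes had passed the filter through their cold arrays. CPK23 rose by 0.28 ± 0.11 in ZH11 (adjusted p = 0.0447) and had 0.16 ± 0.11 in OE (adjusted p = 0.247). Its call in ZH11 was lost in 7 of 18 alternatives, among them each that left out a ZH11 array (adjusted p = 0.0602 to 0.212).

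**Figure D4:**
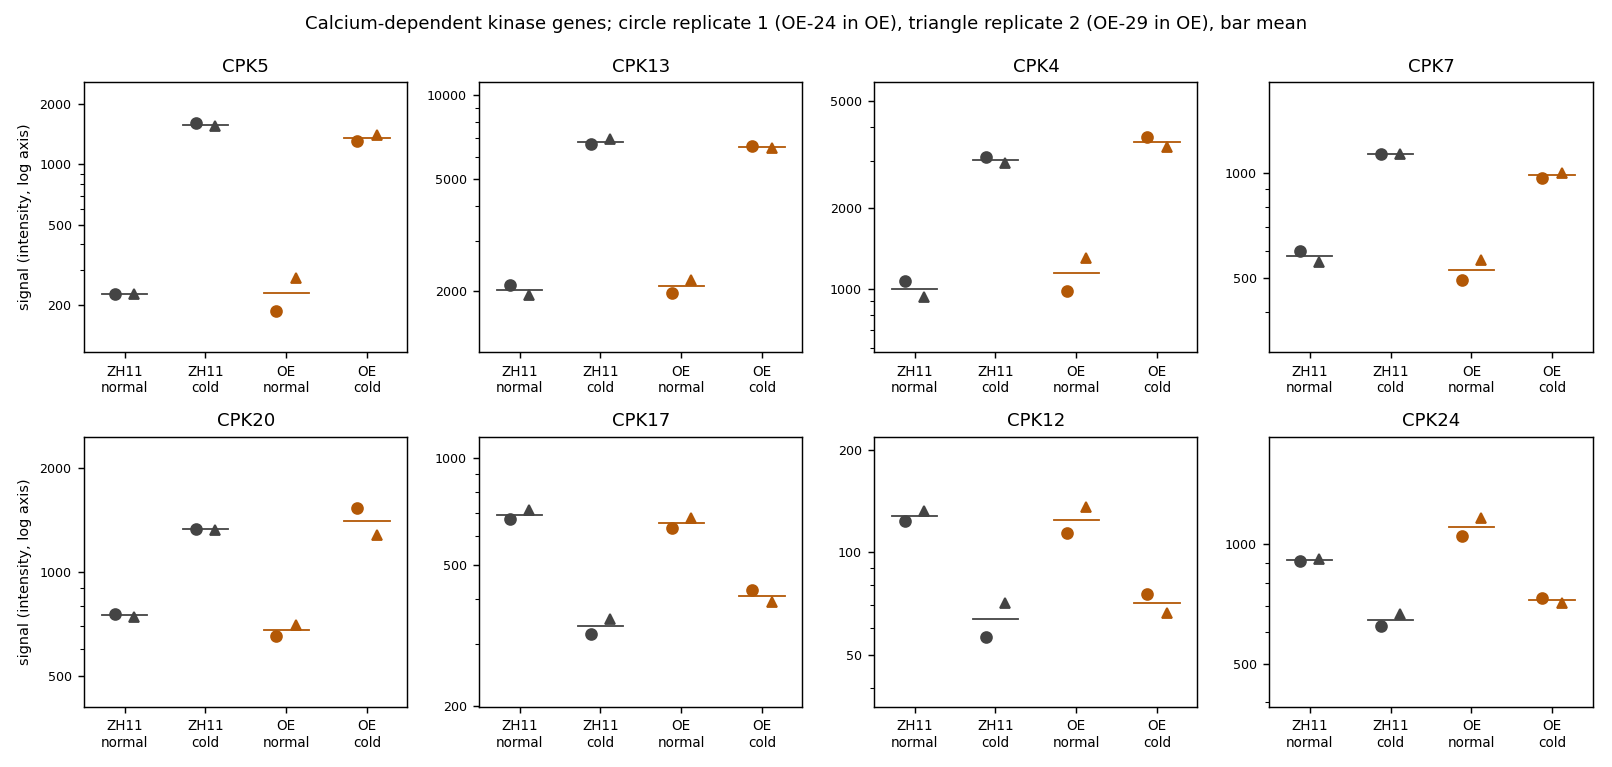
Signal (intensity, log axis) of 8 calcium-dependent kinase genes on each array, ZH11 in grey and OE in orange, with replicate 1 as circles, replicate 2 as triangles and the group mean as a bar. CPK5, CPK13, CPK4, CPK7 and CPK20 are higher on every cold array and CPK17, CPK12 and CPK24 lower. The distance between the cold bars of ZH11 and OE varies by gene. CPK13 lies at 6467 to 6944 on the cold arrays, while CPK17 has cold means of 335.7 in ZH11 and 407.55 in OE. After cold 0 CPK genes were called between genotypes.

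Among the kinases that fell were CPK17 and CPK24, both tied to chilling tolerance in rice. CPK17, which phosphorylates a sucrose phosphate synthase and aquaporins in cold-treated rice, gave 669.7 and 713, then 319 and 353 in ZH11, and 633 and 675, then 423 and 392 in OE. Its changes were -1.01 ± 0.09 (adjusted p = 2.9e-06) and -0.66 ± 0.09 (adjusted p = 7.97e-05). CPK24, a positive regulator of chilling tolerance that acts on a glutaredoxin, gave 906 and 917, then 623 and 666 in ZH11 and 1051 and 1165, then 734 and 711 in OE. It changed by -0.49 ± 0.08 (adjusted p = 0.00027) and -0.60 ± 0.08 (adjusted p = 6.49e-05). Normal and cold arrays did not overlap for either gene. Both had been called on those arrays, so this is no separate support, and the share of all genes without overlap is not given here.

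CPK12, known for salt tolerance and limits on reactive oxygen, fell from 123 and 132 to 56.5 and 71.3 in ZH11 and from 114 and 136 to 75.6 and 66.5 in OE, changes of -0.85 ± 0.13 and -0.69 ± 0.13 (adjusted p = 0.000247 and 0.00118). CPK8 (-0.45 and -0.36) and CPK3 (-0.32 and -0.29) also fell in both genotypes. CPK1 was called in OE at -0.19 (adjusted p = 0.0473) and had -0.14 in ZH11 (adjusted p = 0.126). Its call in OE was lost in 11 of 18 alternatives (adjusted p = 0.0665 to 0.291), 7 of which left out 1 array. CPK9, CPK19 and CPK22 passed in neither genotype, and CPK19 was at 1778 to 2168 on all 8 arrays.

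The probe sets of CPK18, a kinase that acts on a MAP kinase in rice immunity, disagreed. The brightest gave 519 and 564, then 405 and 425 in ZH11, and 569 and 486, then 527 and 462 in OE, with changes of -0.37 ± 0.10 (adjusted p = 0.00919) and -0.09 ± 0.10 (adjusted p = 0.492). The dimmer one gave 25 and 27.4, then 89.6 and 103 in ZH11, and 33.7 and 32.9, then 85.6 and 83.7 in OE, rises of 1.41 ± 0.11 (adjusted p = 1.09e-06) and 1.03 ± 0.11 (adjusted p = 1.36e-05). The counts above take CPK18 as lower in ZH11 from its brightest probe set, and with its probe sets averaged it was called higher in both genotypes. The brightest probe set is of the kind (_s_at) that by the maker's convention can match transcripts of several genes, as are those of CPK5, CPK12 and CML5, and that of CML13 (_x_at) holds probes that can match others in part. Cross-hybridisation among these related genes was not tested.

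The cold comparisons of ZH11 and OE share no arrays, though they share 1 estimate of the spread. Called higher in both were 18 of the 43 genes tested (22.4% of all genes), called lower in both 8 (38.3% of all genes), and called in opposite directions 1, CML5 (0.0946% of all genes). The 18 include CML24, CPK6 and CPK21, which had passed the filter through their cold arrays. Across the 43 genes the changes in ZH11 and OE had a Pearson correlation of 0.9505, against 0.9535 across all genes, as a description of points that come from the same arrays.

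Before cold, limma called 0 of the 43 genes tested between OE and ZH11 (1.51% of all genes were called). Of all 15858 genes, 1892 had an unadjusted p under 0.05 in limma. Of the members 7 did, 5 CML and 2 CPK. The furthest apart was CML11, at 92.2 and 83.8 in OE against 120.3 and 121 in ZH11 (-0.40 ± 0.11, adjusted p = 0.167). CML31 had -0.33 ± 0.13 (adjusted p = 0.454) with overlapping groups, and CPK24 had 0.28 ± 0.08 (adjusted p = 0.182). Without the normal array of OE-24 the call count was 1, CML16.

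After cold, 11 genes differed between OE and ZH11, 7 higher in OE and 4 lower, or 25.6% of those tested against 17.9% of all genes (11.4% higher and 6.51% lower). By family these were 10 of 23 CML genes, 1 of 3 calmodulin genes and 0 of 20 CPK genes. An unadjusted p under 0.05 in limma was found for 5 of the 18 CPK genes tested and for 5774 of 15858 genes in all. CML15 differed most, with OE at 2.43 times the mean signal of ZH11, a log2 difference of 1.27 ± 0.11 (adjusted p = 0.000105) that ranked 68 of 15858 genes. CML5 was higher by 1.03 ± 0.18 (adjusted p = 0.00611; 0.56 ± 0.15 and adjusted p = 0.0332 on the dimmer probe set), CML20 by 0.82 ± 0.13 (adjusted p = 0.00347), CML14 by 0.69 ± 0.13 (adjusted p = 0.00691), CML31 by 0.51 ± 0.13 (adjusted p = 0.0336), CML10 by 0.42 ± 0.08 (adjusted p = 0.00858) and CML29 by 0.34 ± 0.08 (adjusted p = 0.0195). Of these 7, CML15, CML20, CML14, CML31 and CML10 had risen with cold in both genotypes, CML29 had fallen in both, and CML5 is the gene called in opposite directions. Both OE cold arrays exceeded both ZH11 cold arrays for each of the 7. The 7 were called on these same arrays, so this is no separate support. The share of all genes that do so is not given here.

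CML11 was lower in OE after cold, at 66.1 and 58.1 against 125 and 122 in ZH11 (-0.84 ± 0.11, adjusted p = 0.00131), and OE was already the lower before cold. CML30 was lower, at -0.48 ± 0.07 (815 and 836 against 1174 and 1149.8, adjusted p = 0.00229). CML7 had 1512 and 1575 against 1859 and 1787 (-0.24 ± 0.07, adjusted p = 0.045) and CAM1 2183 and 2263 against 2544 and 2617 (-0.21 ± 0.06, adjusted p = 0.0383). The other calmodulin genes had -0.17 ± 0.07 (CAM2, adjusted p = 0.111) and -0.15 ± 0.06 (CAM3, adjusted p = 0.132). CML7 and CAM1 lost their calls after median centring (adjusted p = 0.0659 and 0.0568).

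Leaving out single cold arrays lowered the count of 11. In ZH11, dropping replicate 1 left 4 genes and dropping replicate 2 left 5. In OE, dropping line OE-24 left 5 and dropping OE-29 left 8. CML15, CML20, CML11 and CML30 stayed past the threshold whichever of the 8 arrays was dropped. Root markers moved with this comparison, with a summed signal of 160.3 to 177 in ZH11 normal, 194 to 199 in ZH11 cold, 166 to 257 in OE normal and 279 to 298 in OE cold. Of the 3 root genes found, LSI1, a silicon transporter, carried nearly all of this signal, and LSI2 and PHT1-6 stayed at or below 12.2. Seed storage markers summed to 318 to 333 in ZH11 cold and 349.5 to 353 in OE cold, and meristem markers to 77.8 to 78.2 and 64.6 to 66.3. The part of other tissues in these differences was not tested.

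**Figure D5:**
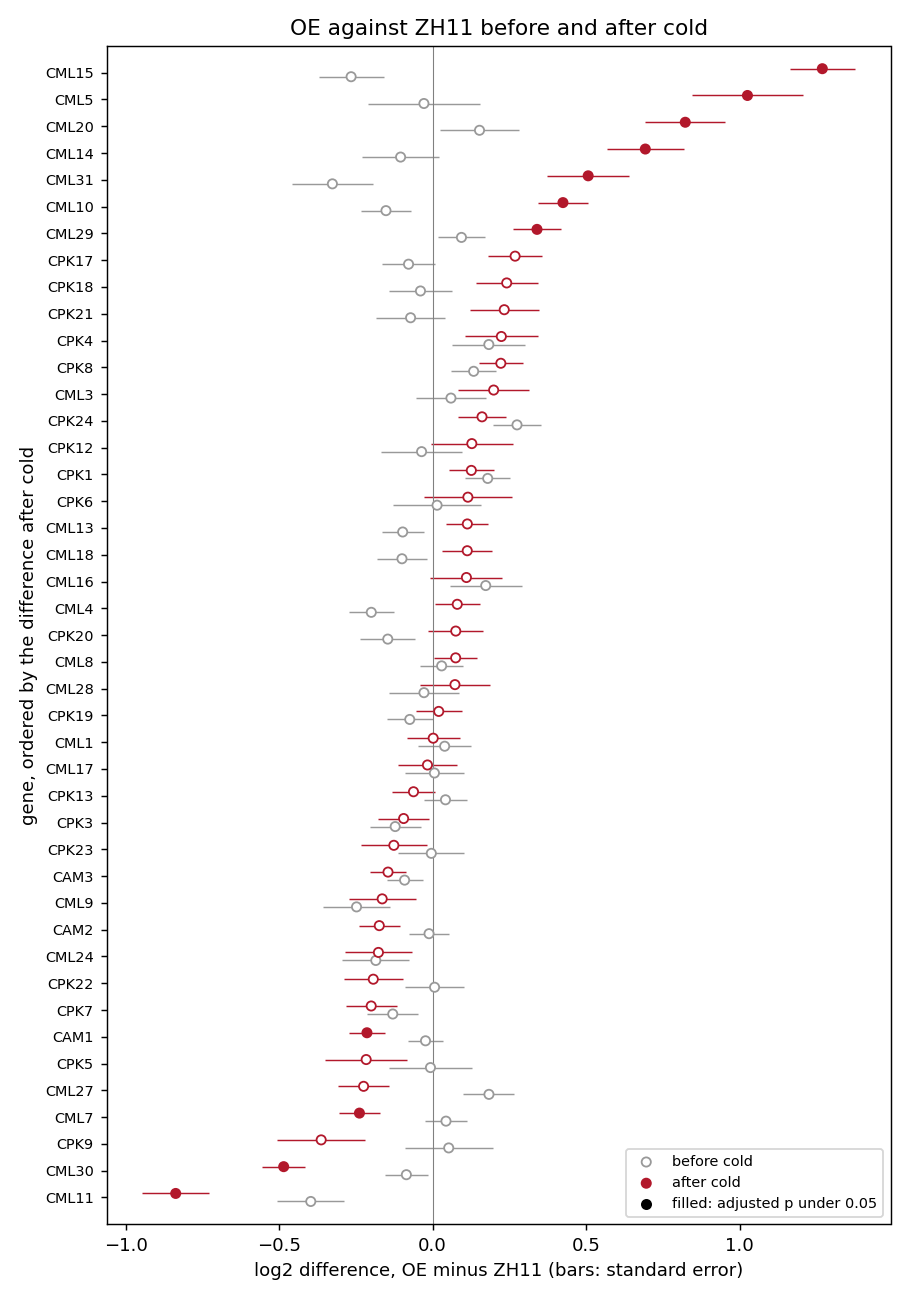
Log2 difference between OE and ZH11 (x axis, OE minus ZH11, with standard errors) before cold in grey and after cold in red for the 43 tested genes, ordered by the difference after cold; filled points were called. Before cold 0 points are filled, and after cold 7 are filled on the right, from CML29 at 0.34 to CML15 at 1.27, and 4 on the left, down to CML11 at -0.84.

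The cold change itself differed between genotypes for CML15 and CML10, 2 of the 43 genes tested (1.53% of all genes). The rise of CML15 was larger in OE by 1.53 ± 0.15 (adjusted p = 0.00186), which ranked 24 of 15858 genes, and that of CML10 by 0.58 ± 0.11 (adjusted p = 0.0455). Not called, and next in order of adjusted p on their brightest probe sets, were CML14 (0.80 ± 0.18, adjusted p = 0.0711), CML31 (0.83 ± 0.19, adjusted p = 0.0731), CML5 (1.05 ± 0.26, adjusted p = 0.0904) and CML30 (-0.40 ± 0.10, adjusted p = 0.0975). The dimmer probe set of CML5 gave 0.55 ± 0.21 (adjusted p = 0.269). CML15 was called in each alternative run, whereas CML10 was not called without either array of any ZH11 group or of OE-24 (adjusted p = 0.0749 to 0.211). With line as a block within OE, CML5 passed as well, for 3 genes. For CPK genes the count was 0, with 1 of 18 tested at an unadjusted p under 0.05 in limma (2734 of 15858 genes in all). The differences of the CPK genes lay between -0.42 (CPK9, adjusted p = 0.401) and 0.35 (CPK17, adjusted p = 0.24).

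The other probe set of CML27 rose from 17.1 and 16.9 to 56 and 72 in ZH11 and from 12.6 and 16.8 to 159.6 and 115 in OE. It was higher in OE after cold by 0.93 ± 0.15 (adjusted p = 0.00424), where the bright one gave -0.22 ± 0.08 (adjusted p = 0.103). The interaction was 1.04 ± 0.22 on this probe set (adjusted p = 0.0562) and -0.41 ± 0.12 on the bright one (adjusted p = 0.151). Of the other probe sets of CML4, one gave cold changes of 0.34 and 0.62, close to the brightest, and the dimmest gave 1.22 and 2.11. The dimmest was also higher in OE after cold, by 0.63 ± 0.13 (adjusted p = 0.0122), where the brightest gave 0.08 ± 0.07 (adjusted p = 0.508). The interaction was 0.90 ± 0.18 on the dimmest (adjusted p = 0.0500008, just outside the threshold) and 0.28 ± 0.10 on the brightest (adjusted p = 0.265). The second probe sets of CML10 and CPK6 did not pass the filter.

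Other parts of calcium signalling were read from 45 further genes, of which 43 were tested, 29 of them CBL sensors or the CIPK kinases they bind. Cold raised 19 and lowered 14 in ZH11, 76.7% of those tested against 71% of all genes. In OE it raised 19 and lowered 15, 79.1% against 67.3%. In ZH11 44.2% were higher and 32.6% lower (25.8% and 45.2% of all genes). In OE 44.2% were higher and 34.9% lower (25.6% and 41.7% of all genes). Rises of 2-fold or more were called for 30.2% in ZH11 and 23.3% in OE (8.64% and 8.25% of all genes). The calcium pump gene ACA1, counted as raised in both genotypes and by 2-fold or more in ZH11, passed the filter through its cold arrays. It was at 16.1 to 18.4 on the normal arrays and 34.1 to 61.8 on the cold ones, so its fold depends on the added 16. Among the CBL and CIPK genes, 15 rose and 8 fell in ZH11, and 15 and 9 in OE. That is 79.3% called in ZH11 and 82.8% in OE, with 51.7% higher in each. The largest rises were those of CIPK14, by 3.54 and 2.48, and of the calcium pump gene ACA7, by 3.45 and 3.72. CIPK10 fell most, with changes of -4.82 and -4.37. The kinase gene CCAMK, known from root symbiosis, had -1.21 and -1.40.

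Both channel genes found, GLR3.1 and TPC1, fell in both genotypes, as did the NADPH oxidase gene RBOHB. Of 10 genes for pumps, exchangers and the calcium-binding chaperone calreticulin, 4 rose and 2 fell in each genotype. ACA1 and ACA7 were called higher in both, ACA10 and CAX3 in ZH11, and ACA5 and ACA8 in OE. CAX1B and CRT1 fell in both. That is 60% called, against 71% of all genes in ZH11 and 67.3% in OE. In each genotype 40% were higher and 20% lower. Over all genes these shares were 25.8% and 45.2% in ZH11 and 25.6% and 41.7% in OE. Before cold 0 of the 43 were called between OE and ZH11 (1.51% of all genes), with 4 at an unadjusted p under 0.05 in limma (1892 of 15858 genes in all). After cold 4 were higher in OE and 7 lower, the 7 all CIPK genes. These were 25.6% of those tested, and 17.9% of all genes were called (11.4% higher and 6.51% lower). The interaction called 0, against 1.53% of all genes. In limma 11 of the 43 had an unadjusted p under 0.05, as did 2734 of 15858 genes in all.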

How the data were processed

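The deposited values are probe-set intensity signals of one-colour Affymetrix rice arrays on a linear scale, and the labels' protocols give biotinylated cRNA. How they were summarised and normalized, and with which software, is not stated in the labels. All 8 columns were used (0 left out), without further scaling. Names came from the platform annotation and the synonyms of a reference gene table (assembly ASM3414082v1). Of 57194 probe sets, 22436 had 1 gene, 95 several and 34663 none. The reference table gives a member name to 53 genes, of which 46 had a probe set of their own, and the others were not analysed here.

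After log2(intensity + 16), 34313 probe sets with a mean above the 40th percentile were fitted with limma 3.58.1 (lmFit, eBayes with trend) in R 4.3.3, as 4 group means with 4 residual degrees of freedom and 5 two-sided contrasts. Benjamini-Hochberg adjustment ran over all tested probe sets. The brightest tested probe set stood for a gene. The number of arrays limits the precision. Figures were drawn with matplotlib 3.10.9.

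Members and lists were chosen with earlier results of these data known. Named members were the calmodulins, the 6 largest called rises and falls in each cold comparison and the 5 largest in each genotype comparison. Others are named to account for every member. OE replicates of one number are the same line, so line pairs the OE arrays. Their replicate differences before and after cold correlated at 0.128 over probe sets, and those of ZH11, whose numbers pair nothing, at -0.0202. Alternatives were other pseudocounts, no filter, quantile normalization, median centring, replicate blocks, fits of the compared groups alone, no trend, averaged probe sets and leaving out each array.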

Additional observations from a re-analysis of the deposited data

Results flagged for a closer look

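The cold rise of CML15 differed between genotypes by the interaction test, 1.53 ± 0.15 on the log2 scale (OE minus ZH11, adjusted p = 0.00186). Signals rose in both pairs of OE arrays to 2442 or more and in ZH11 to 1101 at most. The cold rise of CML10 differed by 0.58 ± 0.11 (adjusted p = 0.0455), a call that most fits with 1 array fewer did not keep.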

How the results depend on the processing

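The counts of members called with cold kept within 1.5 times in all alternatives. They ran from 25 to 31 in ZH11 and 27 to 29 in OE when 1 array was left out. Leaving out 1 array gave 0 to 1 calls between genotypes before cold, 4 to 14 after cold and 1 to 3 for the interaction. The interaction count, 2, was 1 without a filter on low values, 1 with the replicate number as a block over all arrays and 1 without trend, each time through the loss of CML10. With line as a replicate block in OE it was 3, adding CML5; that block changed no other call, and the counts with cold in OE (30) and after cold (11) were as without the block. The number as a block over all arrays, which pairs nothing in ZH11, gave 9 after cold. With its probe sets averaged, CPK18 with cold in ZH11 turned from a called -0.37 to a called 0.52 (adjusted p = 0.00123 in limma). Among the changes of the named members, values near 0 changed sign in 3 cases. With 1 array left out, the change of CAM3 with cold in OE ran from -0.0029 (without OE normal replicate 2) to 0.098. That of CAM2 between genotypes before cold ran from -0.057 to 0.034 (without OE normal replicate 2), and was 0.0016 without ZH11 normal replicate 1. Of the 74 member calls in the 5 comparisons, 54 kept direction and threshold in every alternative run and 20 were lost in at least 1. With cold in ZH11 these were CML4, CML5, CML7, CML18, CPK3, CPK18 and CPK23, and with cold in OE CML1, CML5, CML11, CPK1 and CPK3. After cold they were CAM1, CML5, CML7, CML10, CML14, CML29 and CML31, and for the interaction CML10. CPK1 (11 of 18 alternatives) and, after cold, CAM1 and CML7 (10 of 18 each) were lost most often. The cause was not tested, other than that fits with fewer arrays have fewer degrees of freedom. Low signals limit CPK6, CPK21 and CML24, whose fold sizes depend on the pseudocount by construction.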

Other observations

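Lines OE-24 and OE-29 had 1 array each per treatment, so they are set side by side without a test. Before cold, OE-29 was above OE-24 for 27 of the 43 genes tested (62.8%), as it was for 69.2% of all genes. CML16 stood at 789 in OE-24 and 1091 in OE-29, CPK4 at 984 and 1306, and CPK5 at 187 and 272. After cold OE-29 was above OE-24 for 18 genes (41.9%, and 45.5% of all genes), with CML5 at 221 in OE-24 and 139 in OE-29.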
